A study of Homo sapiens with 6 samples.

Results

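DAG1, PRSS23, CTSZ, BASP1, CD59, GPRC5A and LTBR, genes of proteins that are secreted, sent to the lysosome, carried on the cell surface or attached to the plasma membrane, held some of the highest-scoring N6-methyladenosine (m6A) peaks in U2OS cells. They are 7 of the 10 genes with the highest peak score in the control list, out of 10859 genes (Ensembl identifiers) with a peak in any list, and all of their peaks in every list are described. The members were therefore chosen by the control score, a whole number that the authors gave each peak and for which no definition was at hand. Control scores are a description for that reason and were not tested. The member with the lowest score, LTBR, stood at 9866, and the next gene below the 10, BMP2, at 9759. The other 3 of the 10 were SLC7A5 (59181), the non-coding RNA MALAT1 (15978) and HSPA8 (10171). SLC7A5, an amino acid transporter, is also a protein of the plasma membrane, so the 7 are not all the genes of this kind among the 10.

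U2OS is a human osteosarcoma line, labelled WT in genotype throughout. Control siRNA served as the reference, and YTHDF2 (DF2) was targeted by DF2 siRNA #1 (siRNA 1 below) in some cells and by DF2 siRNA #2 (siRNA 2) in others. Their cytoplasmic RNA was fragmented and pulled down with an anti-m6A antibody. For each of the 3 conditions there were 1 pulled-down library and 1 input library, and 1 deposited peak list. With no replicate lists, no value below has an SD and no difference between lists was tested. The lists held 15272 peaks (control), 13147 (siRNA 1) and 13310 (siRNA 2), with a median score of 158, 33 and 99, so scores were compared only as ranks or percentiles within a list. A percentile is the share of the peaks of a list with a lower score, with ties shared evenly. The sequencing depth behind the peaks is unknown here, and a peak does not measure the amount of an RNA, so the knockdown of YTHDF2 itself could not be checked from the lists. The labels call the cells epithelial, and of 6 epithelial markers none had a control peak, while KRT8 and CLDN4 had one in both siRNA lists. Of 8 osteoblast lineage markers, RUNX2 and COL1A1 had a peak in all 3 lists.

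m6A is placed on messenger RNA by the METTL3 and METTL14 methyltransferase, most often near the stop codon and in the 3′ UTR. YTHDF2 binds the mark in the cytoplasm and recruits the machinery that shortens the poly(A) tail. Messages of secreted and membrane proteins are translated at the endoplasmic reticulum, except those of proteins such as BASP1, which is made in the cytosol and held to the inner face of the plasma membrane by a lipid.

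Sequence was at hand only for the starts of transcripts, and these lines show where the data bear on one: 30 bases of RefSeq sequence (GRCh38.p14, the build that hg38 also names), written 5′ to 3′ on the transcribed strand, that lie wholly inside a peak of the gene. Capitals mark the motif GGAC, a frequent core of m6A sites, which was searched on both strands of the stretches printed.
DAG1, chr3:49470140-49470169, plus strand, in a peak of all 3 lists: gccggcggcgcgcGGACagccagtcggcgc
PRSS23, chr11:86800542-86800571, plus strand, in a peak of all 3 lists: gcactcggctgtgcggcggggcaggcatgg
BASP1, chr5:17216823-17216852, plus strand, in a peak of all 3 lists: gcgcaactcgtttgcagcggcgcagcccag
CTSZ, chr20:59007218-59007247, minus strand, in a peak of siRNA 1 alone: ggggtcggccgggtgctgggccgaggccga
CD59, chr11:33736394-33736423, minus strand, in a peak of siRNA 1 alone: agaagcggctcgaggctggaagaggatctt
GGAC was found in the DAG1 stretch and in none of the other 4. Among 35116 RefSeq start windows, 18.9% held GGAC on the transcribed strand in the first 50 transcribed bases and 10.96% in the first 30. The DAG1 stretch (bases 9 to 38 of the transcript) was placed around its motif, and the CTSZ stretch (bases 8 to 37) where the peak begins, while the others are bases 1 to 30. These letters mark no methylated site, and their absence from a window of this length says nothing of the rest of the peak. For 6 of the 7 genes a RefSeq start window was found, 11 windows in all, and GPRC5A had none in the table.

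The highest-scoring peak of each of the 7 genes was annotated to a stop codon in every list. For GPRC5A the annotation named no 3′ UTR, and a GPRC5A peak further downstream was annotated to a stop codon and 3′ UTR in each list. Which transcript a stop codon belongs to was not given. Over the whole lists a stop codon was included in 42.9% (control), 43.5% (siRNA 1) and 43.7% (siRNA 2) of peaks. In the highest 1% by score this share was 81.7% (74.6 to 87.5, 95% exact binomial interval, counting error only), 75.8% (67.5 to 82.8) and 80.6% (72.9 to 86.9), so the 7 members resemble other high-scoring peaks in this. All 7 control peaks had at least 1 base in common with a peak of both siRNA lists on the same strand. The same was true of 62.8% of all control peaks and of 99.3% of the top 1% by score (152 of 153), so presence in all lists was the rule at this score. The leading peaks of siRNA 1 and of siRNA 2 were likewise all found in both other lists, as were 75.9% and 73.2% of all peaks there. A leading peak that reached from the 5′ UTR to a stop codon was seen in 3 genes in control (PRSS23, BASP1 and GPRC5A) and in 4 with either siRNA, DAG1 being added, while such peaks made up 8.28%, 8.55% and 8.32% of the lists. Of the highest 1% by score, 21.6%, 28.0% and 29.1% included 5′ UTR, with or without a stop codon. The members are too few to be told apart from these. Peaks of the 5′ UTR without stop codon or 3′ UTR numbered 2 of the 16, 3 of the 14 and 1 of the 11 member peaks, beside 14.4%, 18.9% and 16.6% over all peaks. The members together had 16 control peaks, 14 with siRNA 1 and 11 with siRNA 2. Genes with 2 or more peaks numbered 3 of the 7 in control, 5 with siRNA 1 and 3 with siRNA 2, against 39.4%, 38.6% and 37.8% of all genes with a symbol in those lists.

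**Figure D1:**
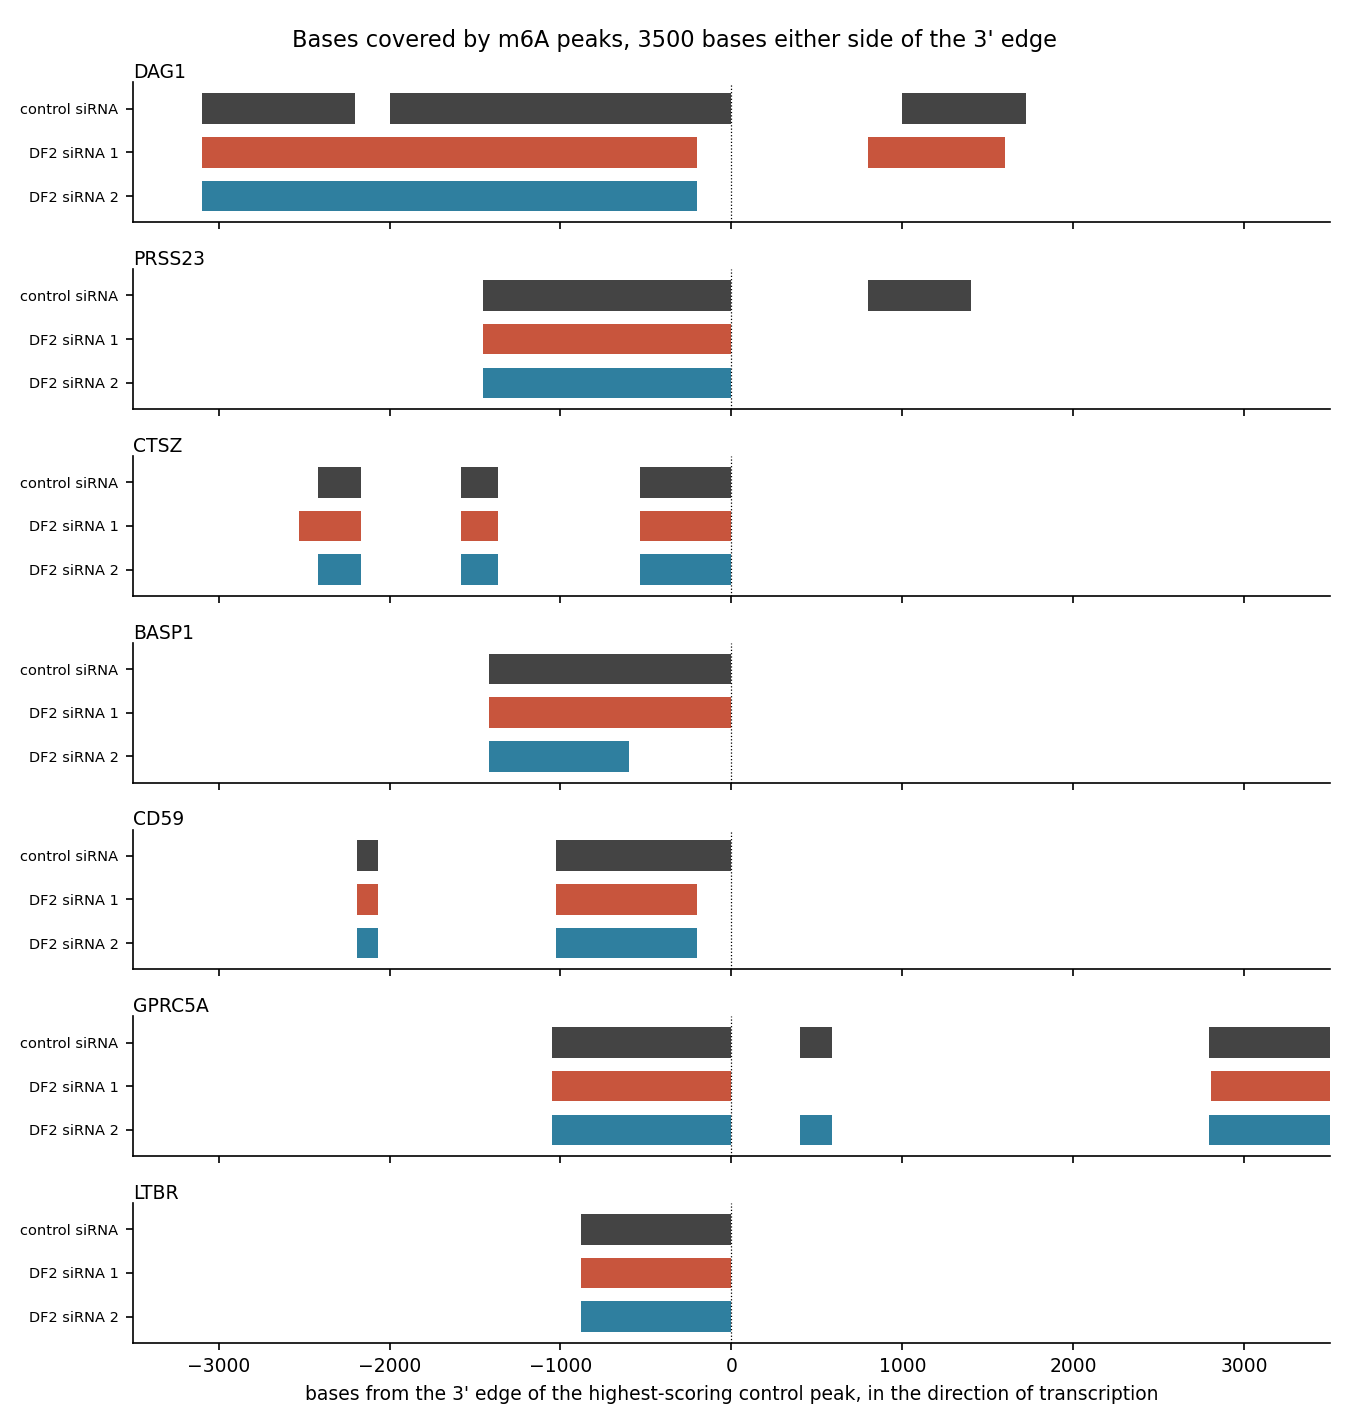
Bases covered by m6A peaks of the 7 genes in the 3 lists, as distance in bases from the 3′ edge of the highest-scoring control peak (dotted line) in the direction of transcription, out to 3500 bases on either side; bars are covered stretches and white gaps are uncovered exon or intron. The LTBR, PRSS23, CTSZ and GPRC5A bars at the dotted line end at the same base in all 3 lists. The DAG1 and CD59 bars stop 200 bases earlier in both siRNA lists, and the BASP1 bar stops 600 bases earlier with siRNA 2.

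DAG1 encodes dystroglycan, which is cut into a part outside the cell that binds laminin and a part in the membrane that reaches the cytoskeleton. Its identifier in the files is ENSG00000173402, on chromosome 3, plus strand (build hg38, as for all positions below). It had 4 control peaks, of which the highest, from 49531896 to 49533895, covered 2000 unbroken bases of coding sequence, stop codon and 3′ UTR with a score of 22000. A second peak ran from 49510321 to 49531695 over 1400 bases of 5′ UTR and coding sequence, also annotated to a stop codon, with a score of 8996 (percentile 99.9). Only 200 bases, 49531696 to 49531895, separated these 2 control peaks. With siRNA 1 and with siRNA 2 that gap was covered, and a single peak of 3400 bases ran from 49510321 to 49533695, with a score of 2731 and 8597. The joined peak stood at rank 10 of the siRNA 1 list and rank 6 of the siRNA 2 list, against rank 3 for the higher control peak.

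The other DAG1 peaks lay at both ends of the message. A 5′ UTR peak of 400 bases, in pieces of 353 bases (49468703 to 49469055) and 47 bases (49470132 to 49470178), was the same to the base in all 3 lists. Its second piece begins at a RefSeq transcript start, and it holds the GGAC printed above. Its score percentile was 81.0 in control, 76.6 with siRNA 1 and 79.8 with siRNA 2, and the authors' fold enrichment was 18.0, 38.9 and 33.6. At the other end, a 3′ UTR peak of 723 bases (49534896 to 49535618) in control overlapped one of 800 bases with siRNA 1 (49534696 to 49535495), by 600 bases. The siRNA 2 list had no peak there.

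PRSS23 encodes a secreted serine protease of the trypsin fold (ENSG00000150687, plus strand of chromosome 11). Its main peak, 86800503 to 86809081, covered the same 1600 bases in every list, 149 of them in a first stretch at the transcript start and 1451 through the coding sequence and stop codon into the 3′ UTR. Its score was 18695 in control, 2659 with siRNA 1 and 10710 with siRNA 2, at rank 4, 11 and 5. A separate 3′ UTR peak of 600 bases (86809882 to 86810481, score 600, fold 12.4) was found in control and in neither siRNA list. Its −log10 FDR (false discovery rate), also the authors' value, was 1.81.

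A distant set of PRSS23 peaks lay near 86.9 Mb, at the far end of the gene span in the files, and met peaks of another gene. The frizzled receptor gene FZD4 had a peak from 86950662 to 86952461 on the opposite strand in every list. The last PRSS23 peak (control 86951986 to 86952910, siRNA 1 86951786 to 86952785, siRNA 2 86951986 to 86952785) shared 476, 676 and 476 bases with it. The PRSS23 peak before it shared 370 bases in control (86940942 to 86951585) and 570 with siRNA 2 (86950470 to 86951785), and siRNA 1 had none. Score percentiles of the last PRSS23 peak were 52.9, 18.7 and 56.4, beside 55.0, 33.1 and 36.9 for the FZD4 peak. Nothing at hand says whether the counting used strand, and which gene the reads came from was not tested.

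CTSZ encodes cathepsin Z, a cysteine carboxypeptidase of the lysosome (ENSG00000101160, minus strand of chromosome 20). In control and with siRNA 2 it had a single peak, 58995223 to 58997639, of 1000 bases in 3 exon stretches of 248, 215 and 537 bases that end in the 3′ UTR. The peak ended 38 bases short of the RefSeq end of the gene. With siRNA 1 the same bases were covered and the peak reached further toward the 5′ end, to 59001550, adding 200 covered bases. Its score was 17179 in control (rank 5), 4842 with siRNA 1 (rank 4) and 8428 with siRNA 2 (rank 7). The siRNA 1 list alone had a further CTSZ peak of 200 bases over 5′ UTR and coding sequence, 59007048 to 59007247. It began 7 bases inside the RefSeq start and had percentile 93.5, fold 36.7 and −log10 FDR 9.35.

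BASP1 encodes a myristoylated protein of the inner membrane face, named for its abundance in brain and growth cones (ENSG00000176788, plus strand of chromosome 5). It had 1 peak per list, from 5′ UTR to 3′ UTR, in 4 stretches that begin at 17212128. The last stretch held 1419 bases in control and with siRNA 1 and ended at 17276626, which is 208 bases before the RefSeq end. With siRNA 2 it held 819 bases and ended at 17276026, and the stretches upstream were unchanged. The score was 13656 in control (rank 7), 4921 with siRNA 1 (rank 3) and 12514 with siRNA 2 (rank 3), so BASP1 stood higher in both siRNA lists than in control by this measure. Its 5′ stretches met a peak of AC091878.1 on the opposite strand, by 25 bases in control and 75 with siRNA 1.

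CD59 is a glycosylphosphatidylinositol (GPI)-anchored surface protein that blocks assembly of the complement membrane attack complex (ENSG00000085063, minus strand of chromosome 11). Its main peak covered 1400 bases in control (33709318 to 33717621), 1200 with siRNA 1 (33709518 to 33717621) and 1000 with siRNA 2 (33709518 to 33717421). The last 200 bases in the 3′ UTR were thus covered in control alone, and the first 200 were missing with siRNA 2. The score was 12830, 1833 and 3095, at rank 8, 31 and 95, the lowest rank of any member with siRNA 2. A 5′ UTR peak of 400 bases in 5 stretches between 33722589 and 33736445 was found with siRNA 1 alone. That peak was low in its list by fold (8.53, percentile 24.0) and by −log10 FDR (1.44, percentile 4.95), while its score of 44 was above the list's median, at percentile 57.3.

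GPRC5A encodes an orphan receptor of 7 membrane passes that is induced by retinoic acid (ENSG00000013588, plus strand of chromosome 12). Its highest-scoring peak ran from 12891182 to 12909290 in control and covered 1600 bases of 5′ UTR and coding sequence to a stop codon. In both siRNA lists it began 200 bases later, at 12891382, and covered 1400 bases. The score was 10845 in control (rank 9), 2451 with siRNA 1 (rank 13) and 4724 with siRNA 2 (rank 29). A peak over a stop codon and 3′ UTR that ended at 12912897 was also present in each list. It covered 1000 bases from 12909691 in control and with siRNA 2, and 800 bases from 12912098 with siRNA 1. Its score stood at rank 160 of the control list, 305 of siRNA 1 and 701 of siRNA 2. Its fold enrichment was 16.9, 29.9 and 19.5 (fold percentile 44.6, 74.5 and 52.0).

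The outermost GPRC5A peaks differed between lists. A peak at the 3′ end of the gene covered 440 bases in control (12917498 to 12917937) and 200 with siRNA 1 (12917698 to 12917897), and siRNA 2 had none. A 5′ UTR peak of 200 bases, 12890782 to 12890981, was found in control alone with a score of 5 and percentile 4.45, the lowest of all member peaks. It lies upstream of the RefSeq start of the gene.

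LTBR encodes the lymphotoxin beta receptor, a tumour necrosis factor (TNF) receptor family member that signals to NF-kappaB in lymphoid organ development (ENSG00000111321, plus strand of chromosome 12). It had a single peak of 880 unbroken bases, 6390692 to 6391571, with the same edges in all 3 lists. The peak covers coding sequence, stop codon and 3′ UTR up to the end of the gene. The score was 9866 in control (rank 11), 1523 with siRNA 1 (rank 44) and 4399 with siRNA 2 (rank 36). The fold enrichment of this peak was 67.7 in control, the highest of the 7, 130 with siRNA 1 and 85.6 with siRNA 2. The fold percentile was 95.3, 98.3 and 95.8.

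**Figure D2:**
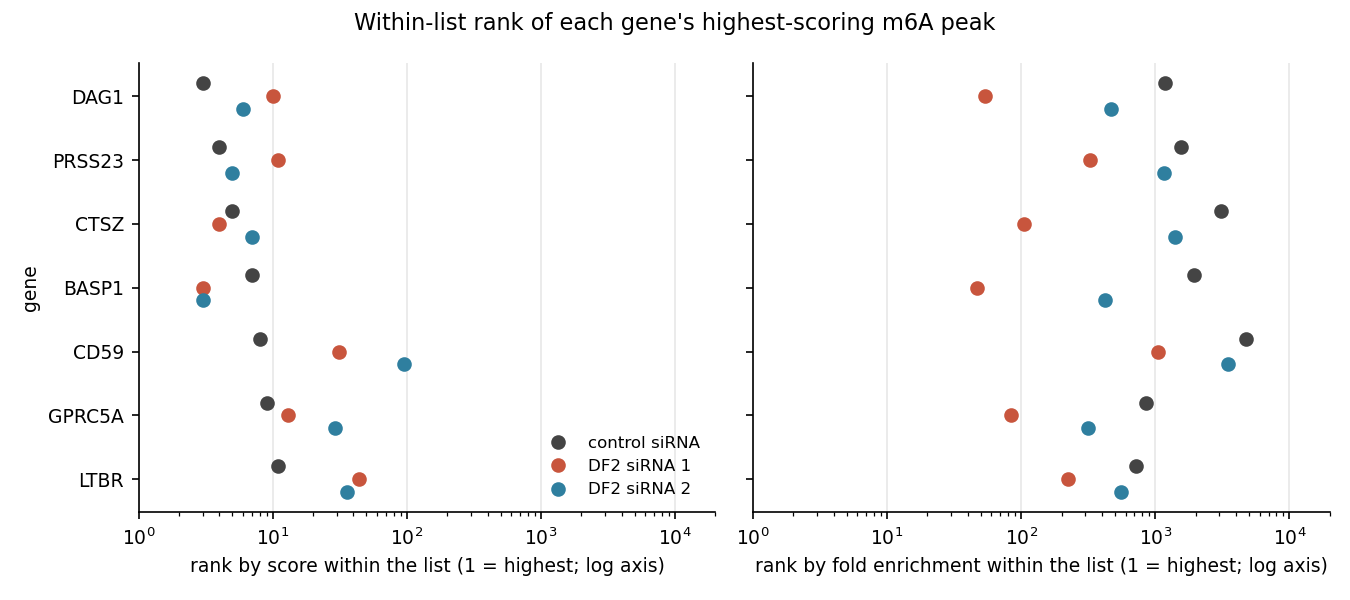
Rank within its list of the highest-scoring peak of each gene, by score (left) and by the authors' fold enrichment (right), on log axes where 1 is the highest; points are the 3 lists. By score all points lie between rank 3 and rank 95, while by fold they lie between rank 47 and rank 4765.

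The 7 peaks that led by score did not lead by fold enrichment. By score the best rank was 3 in every list and the lowest was 11 (control), 44 (siRNA 1) or 95 (siRNA 2), and all were in the top 1% of each list. Ranked among genes, 6 of the 7 were in the top 1% with siRNA 2. Of the 100 genes with the highest control score, 58 stood in the first 100 genes with siRNA 1 and 61 with siRNA 2. All 7 members were among these, but they were picked from the first 10 of the 100. By fold, the control ranks of the 7 leading peaks ran from 721 (LTBR) to 4765 (CD59). None of the 7 was in the top 1% of the control list or of the siRNA 2 list. With siRNA 1, 4 of the 7 were, namely DAG1, CTSZ, BASP1 and GPRC5A. The share of other high-scoring peaks in the top 1% by fold was not counted, so the 4 of 7 are not read as particular to the members. The place of the members by control score was fixed by their choice, so lower control ranks by fold are no finding about them. The median fold of the 7 was 54.9 (control), 164 (siRNA 1) and 85.6 (siRNA 2). It was 19.1, 14.9 and 18.7 over all peaks of each list, and 60.2, 139 and 86.6 in the top 1% by score. The median fold percentile was 89.9, 99.2 and 95.8, beside 92.5, 98.7 and 96.0 for the top 1% of peaks by score. The fold percentiles of the members were thus close to those of other high-scoring peaks.

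CD59 stood apart from the other 6 by fold in each list. Its fold percentile of 68.8 (control), 92.0 (siRNA 1) and 73.9 (siRNA 2) was the lowest of the 7 each time, with folds of 30.6, 65.6 and 33.9. The next lowest was CTSZ in control (79.9) and with siRNA 2 (89.5), and PRSS23 with siRNA 1 (97.5). By −log10 FDR the CD59 peak, at 4.22, was also the lowest of the control peaks that led their gene, and GPRC5A, at 14.8, the highest. With siRNA 1 the values ran from 15.7 (CD59) to 59.5 (BASP1), and with siRNA 2 from 5.50 (CD59) to 24.4 (GPRC5A).

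**Figure D3:**
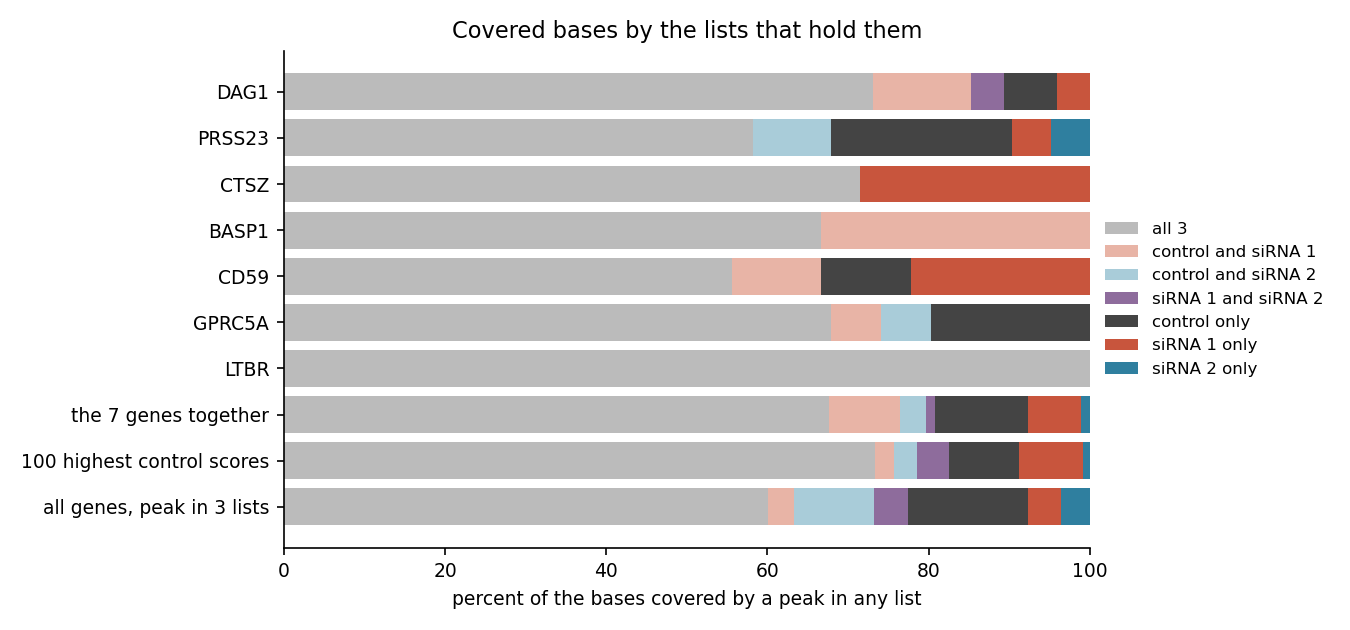
Share of covered bases by the lists that hold them, in percent of the bases covered in any list, for each gene, the 7 genes together, the 100 genes with the highest control score and all genes with a peak in all 3 lists. LTBR is covered alike in all lists, and the grey share of the other 6 genes runs from 55.6% to 73.1%.

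Base by base, the members' peaks overlapped about as far as those of other genes. Of 18168 bases covered in any list in the 7 genes, 12280 or 67.6% were covered in all 3, against 73.3% in the 100 genes with the highest control score and 60.1% in all 7053 genes whose symbol, as spelled in the files, had a peak in every list. The share was 100% in LTBR, 73.1% in DAG1, 71.4% in CTSZ, 67.9% in GPRC5A, 66.7% in BASP1, 58.2% in PRSS23 and 55.6% in CD59. Bases covered in control alone made up 11.5% in the 7 genes, beside 8.74% in the 100 and 14.9% over all. They lay in PRSS23 (925 bases), GPRC5A (640), DAG1 (323) and CD59 (200). In PRSS23, 600 of them were the 3′ UTR peak found in control alone. All other PRSS23 bases not held by all 3 lists lay in the distant set that met FZD4, whose gene of origin was not tested. Over the 7 genes, bases that control lacked and both siRNAs had made up 1.10%, the 200 bases of the DAG1 gap, beside 3.93% and 4.19%. Bases covered by siRNA 1 alone (1200) lay in CTSZ and CD59 (400 each) and in DAG1 and PRSS23 (200 each). Both siRNA lists were set against the same control list, so the comparisons are not independent of each other.

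In gene rank by best score, BASP1 stood at 6 in control and at 2 with either siRNA. CD59 stood at 7, 30 and 91, GPRC5A at 8, 12 and 27, and LTBR at 10, 43 and 34. DAG1 (2, 9 and 5), PRSS23 (3, 10 and 4) and CTSZ (4, 3 and 6) stayed within the first 10. The median rank of the 7 was 6, 10 and 6. For the 100 genes with the highest control score it was 50.5, 84 and 71.5. The 7 are part of these 100 and were picked from their first 10, so the ranks of the sets are not compared. Genes picked for a high rank in 1 list tend to stand lower in others, and these ranks measure no change in methylation.

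Genes that work with the 7, or belong to their families, were listed to see how common such peaks are. Of 145 such genes, 78 had a peak in any list and 62 had one in all 3, which is 79.5% (68.8 to 87.8) of the 78. Counted in the same way, by symbol with older names updated, 7072 of all 10825 genes with a peak in any list had one in all 3, or 65.3%. Both counts take any peak of a gene, wherever it lies. The leading control peak itself overlapped a peak of both siRNA lists in 57 of the 62 relatives. The relatives were not chosen to match other genes in peak score, so the share of 79.5% is not read as particular to the relatives.

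Of 17 genes of the dystrophin-glycoprotein complex and its matrix ligands, 8 had a peak in any list and 6 in all 3 lists. The highest was AGRN (agrin, a ligand of dystroglycan), at percentile 97.7 in control, 99.6 with siRNA 1 and 98.4 with siRNA 2. LAMC1 and LAMB1, laminin chains, stood at 97.4 and 87.3 in control. SGCE, a sarcoglycan, had a peak with siRNA 1 alone, and DTNB, a dystrobrevin, in control alone. Of 18 genes that serve, directly or not, to build the sugar chain by which dystroglycan binds laminin, 13 had a peak in any list. The number with a peak in each list was 11, led by DPM2 (percentile 91.9, 98.0 and 94.9), POMK, DOLK and POMGNT2. POMT1 and DPM3 had one with siRNA 1 alone.

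Proteases were listed as serine proteases and cathepsins, and these groups were not compared. Of 18 serine proteases, most of them secreted or in membranes, 10 had a peak in any list, and all 10 had one in each. FURIN, which cleaves precursors in the secretory pathway, stood at percentile 99.8, 99.7 and 99.7, with folds of 88.2, 253 and 135. MBTPS1 (98.4 in control), the site-1 protease of the Golgi, HTRA1 (90.1), a secreted protease, and PCSK6 (86.8), a relative of furin, followed. Of 14 cathepsins and their partners, 8 had a peak in any list and 4 in each. The 4 were CTSC (99.8, 98.3 and 98.5), CTSL, CTSA and CST3, a secreted inhibitor. CTSD had a peak in control and with siRNA 1, CTSO with both siRNAs, and CTSV and the inhibitor CSTB in control alone.

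The closest relatives of BASP1 that had a peak were MARCKS and MARCKSL1, which also bind the inner membrane face, at percentile 95.8 and 93.2 in control with a peak in each list. Of 8 complement regulators 2 had a peak, CD55 and CLU, both in each list. Of 23 GPI anchor genes, whose products make the anchor that CD59 carries, 14 had a peak in any list. A peak in each list was held by 10, led by PIGC (94.4, 89.7 and 92.4), PIGY, PIGW and PIGU. PIGS had a peak with both siRNAs and none in control, PGAP3 in control and with siRNA 2, PIGB with siRNA 1 alone and PIGP with siRNA 2 alone.

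Of the receptors, GPRC5C was the only other GPRC5 gene of 3 with a peak, at percentile 91.7, 94.4 and 92.0 and folds of 63.2, 140 and 110. Of 28 other TNF receptor genes, 12 had a peak in some list and 9 in all lists. The highest were the death receptors TNFRSF10B (99.6, 98.0 and 97.6) and TNFRSF10A (95.1, 93.1 and 90.7), followed by TNFRSF1A, the main TNF receptor, and TNFRSF21. FAS and TNFRSF10D, a death receptor and a decoy receptor, had a peak in control alone, and TNFRSF6B, a soluble decoy, in control and with siRNA 2. Of 13 genes of lymphotoxin signalling, ligands included, 8 had a peak in any list. The 7 with a peak in each list were led by the adaptors TRAF3 (82.9, 88.3 and 83.3), TRAF5 and TRAF2 and the ubiquitin ligase BIRC2. TRAF1 had one with siRNA 1 alone.

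**Figure D4:**
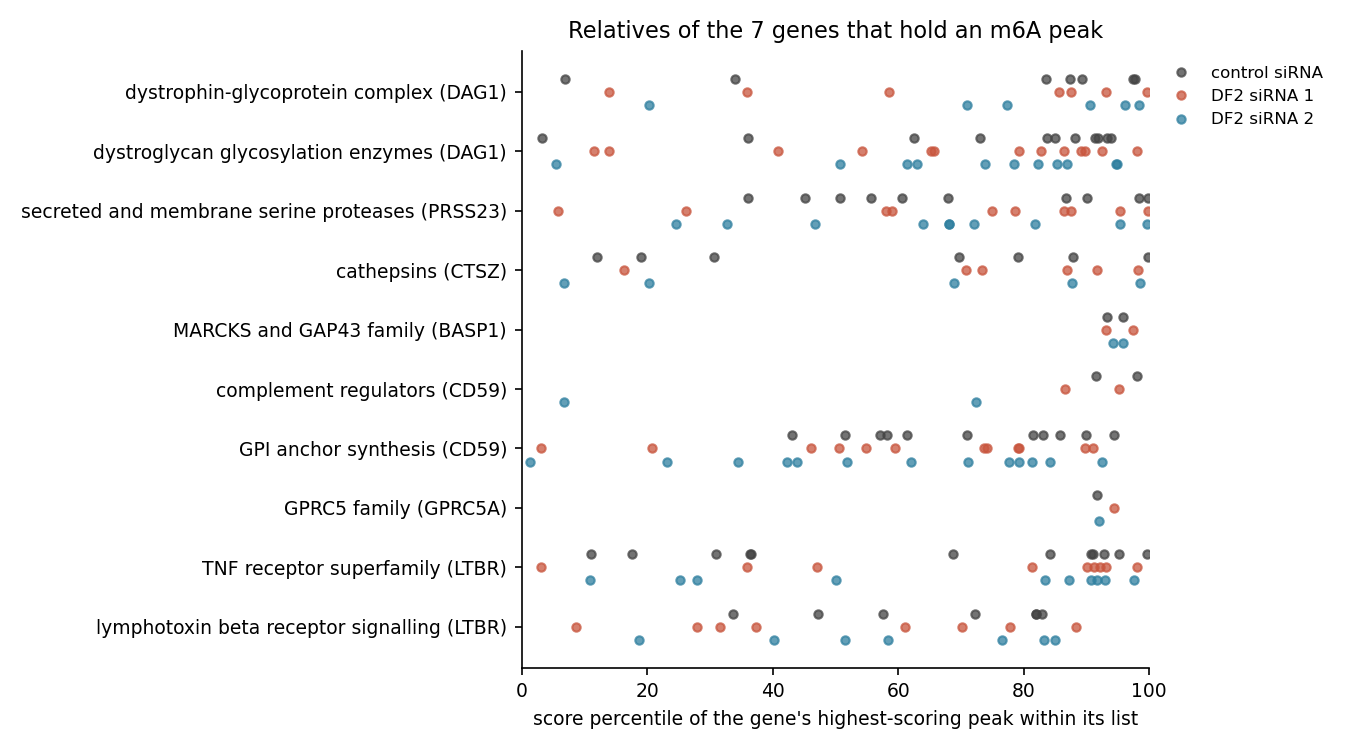
Score percentile within its list of the highest-scoring peak of each relative that had one, by gene list (the gene in brackets is the member it belongs with); points are genes and colours are the 3 lists. FURIN, CTSC, AGRN and TNFRSF10B lie at the right edge in each list, above percentile 97.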

How the data were processed

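The 6 samples were 1 input and 1 m6A pull-down library for each of 3 siRNA treatments, grouped by title. Alignment with HISAT2 and the genome build hg38 are named in the submitters' processing notes. The peak caller: not given in the sources used here. Each condition has 1 list deposited by the authors, marked in its name as merged over r1 and r2, though the labels hold 1 pull-down per condition. The deposited score is a whole number of unstated definition. The deposited fold enrichment (ratio) and the deposited −log10 FDR are per peak, as the column headings say.

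Starts were raised by 1. Block sizes on the minus strand were reversed, after which the blocks of every peak ended where its peak did. Overlap meant at least 1 base on the same strand, and the code recovered 3000 of 3000 simulated pairs of peaks. Genes were matched by the symbol in the files, and by single older RefSeq synonyms for relatives. The members and gene lists were chosen with earlier results of these data known. Named relatives were up to 4 per list with the best mean percentile among those in all 3 lists, and those with a peak in 1 or 2. 1 gene that this rule names is not reported here. No p-value was computed. Python 3.11.15, pandas 2.3.3 and scipy 1.17.1 were used.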

Additional observations from a re-analysis of the deposited data

How the results depend on the processing

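All 7 leading control peaks were found in both siRNA lists under each of 4 alternatives, of which only the 50% rule could have changed this. The leading peak was annotated to a stop codon also when taken by fold or by width. For a gene with 1 peak in a list, as CTSZ, BASP1, CD59 and LTBR in control, that choice could change nothing. The share of all control peaks found in both siRNA lists was 52.6% where both peaks had to share 50% or more of their bases, 64.2% with an FDR under 0.01 and 72.0% when every list was cut to its best 13147 peaks by score (main value 62.8%). The number of members in the top 1% depended on the measure. It was 0 by fold and 0 by FDR in control and with siRNA 2, and 4 by fold and 2 by FDR with siRNA 1, and the cause was not tested. The share of other high-scoring peaks there by fold or by FDR was not counted. Ranked among genes by best score, the number was 7 in control, 7 with siRNA 1 and 6 with siRNA 2. With an FDR under 0.01, 5 member peaks were left out, the 3′ UTR peaks of DAG1 (siRNA 1), PRSS23 (control) and GPRC5A (control and siRNA 1) and the 5′ UTR peak of CD59. With that FDR the relatives with a peak in all 3 lists numbered 49 in place of 62, and the member peaks 14, 11 and 11 in place of 16, 14 and 11. All 31 alternative values are counts or shares, which have no direction that could turn. The cut by score could not drop the 7 leading control peaks, as their high control score chose them. Taking the whole span of a peak can only add overlap. The FDR cut could not drop the leading peaks, whose −log10 FDR was at least 4.22 (control), 15.7 (siRNA 1) and 5.50 (siRNA 2). No paired analysis was possible because there is 1 list per condition, and no library could be left out.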

Other observations

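Among the relatives, CLU (clusterin, a secreted chaperone) and POMGNT1 (a glycosyltransferase acting on dystroglycan) had the widest spread of percentile over the lists of the 62 relatives found in all 3, and both were picked after their values were seen. The leading CLU peak stood at percentile 98.0 in control and 95.1 with siRNA 1, over 5′ UTR and coding sequence to a stop codon, while the only CLU peak with siRNA 2 lay in the 3′ UTR at percentile 6.81. The POMGNT1 control peak had a score of 4 and no transcript annotation, and its peaks with siRNA 1 and siRNA 2 included the stop codon, at percentile 65.7 and 61.4. These are values from 1 list per condition, with no test.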
